A study of Mus musculus with 12 samples.

Results

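The Rab GTPases, the largest family of small GTPases that direct membrane traffic, were examined in mouse macrophages that lack or retain the histone deacetylase HDAC3, with and without lipopolysaccharide (LPS), the bacterial cell wall component sensed by TLR4. Members were the genes whose symbol is Rab followed by digits and at most 1 letter, each read from its brightest probe set. There were 59 of them among the 19945 genes measured, and effectors with Rab in their name, such as Rab3il1, were not counted. Of the 59 genes 56 had a single probe set, and Rab2a, Rab5b and Rab11b had 2 each. The cells were primary macrophages grown from the marrow of C57BL/6 mice in L929-conditioned medium and used on the 7th day of differentiation. There were 3 arrays in each of 4 groups, which were HDAC3 -/- cells given 100 ng/ml LPS for 4 h, HDAC3 -/- cells left untreated, HDAC3 +/- cells given the same LPS, and HDAC3 +/- cells left untreated. The labels call the HDAC3 +/- cells wild type, although they carry a single intact allele. The sources used here give neither the deletion strategy nor the age of the mice. Nothing in the labels ties the 3 arrays of a group to separate animals. The p-values therefore cover the spread between arrays, which may be technical in HDAC3 -/- cells. In each HDAC3 +/- group replicate 1 alone had the Y-linked signal of male cells. Both HDAC3 +/- groups thus hold cells of more than 1 animal, and their spread is not technical alone. Whether replicates 2 and 3 of these groups came from separate animals is not known.

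Rab proteins are switches that cycle between a GDP-bound form held in the cytosol and a GTP-bound form on membranes. Guanine nucleotide exchange factors (GEFs) load them with GTP, GTPase-activating proteins (GAPs) turn them off, prenylation by Rab geranylgeranyl transferase anchors them, and the GDP dissociation inhibitor (GDI) retrieves them. Each active Rab recruits its own effectors, such as tethers and motors, and so marks a compartment. In macrophages Rab5, Rab7 and their relatives are known for the maturation of phagosomes, and others carry TLR4 and cytokines along the secretory route.

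The measured values were log2 signals of Affymetrix whole-transcript arrays, on which 1 unit is a 2-fold difference, and levels of different probe sets were not set against each other. Hdac3 itself read 6.91, 7.25 and 7.18 in HDAC3 -/- LPS cells and 7.39, 7.52 and 7.39 in HDAC3 -/- untreated cells, against 8.90, 9.02 and 8.66 in HDAC3 +/- LPS cells and 9.42, 9.10 and 8.98 in HDAC3 +/- untreated cells, so every array fitted its label. Which part of the gene its probes cover was not tested. All 9 measured macrophage markers, such as Adgre1 and Csf1r, had group means of at least 6.58. Of 8 neutrophil genes only S100a8 reached a group mean of 6, while Ly6g, which defines neutrophils, stayed at or below 3.58. The summed linear signal of these 8 genes was 523.1 to 1340 in -/- LPS cells and 172.8 to 427.5 in -/- untreated cells, against 213.1 to 930.8 in +/- LPS cells and 197.4 to 254.6 in +/- untreated cells. Sums of 4 other marker lists were higher on the +/- LPS arrays than on the arrays of the 3 other groups. The 5 eosinophil genes summed to 114 to 139.8 in -/- LPS cells and 94.22 to 101.1 in -/- untreated cells, against 189.2 to 362.8 in +/- LPS cells and 102.9 to 162.4 in +/- untreated cells, where Ccr3 reached a group mean of 6 in +/- LPS cells and the granule genes Epx and Prg2 stayed at or below 4.37. The 6 dendritic cell genes summed to 135.7 to 160.6, 130.5 to 146, 169.6 to 181.6 and 130.8 to 158.2 in the same order of groups. The 3 B cell genes summed to 32.84 to 41.49, 37.04 to 42.37, 45.24 to 50.54 and 33.45 to 38.15, and the 6 T and NK cell genes to 93.33 to 111.6, 102.6 to 103.4, 119.7 to 138 and 87.85 to 118.3. No gene of these 3 lists reached a group mean of 6. The part of these lists in the Rab results was not tested. Y-linked transcripts were bright, and Xist dim, on replicate 1 of both HDAC3 +/- groups only, so these 2 arrays came from male cells, and the counts without them stand beside each comparison. Upper quartiles of the log2 signal were 7.36, 7.29 and 7.44 on -/- LPS arrays, 7.46, 7.42 and 7.39 on -/- untreated arrays, 7.32, 7.19 and 7.15 on +/- LPS arrays and 7.45, 7.37 and 7.50 on +/- untreated arrays, so that +/- LPS replicates 2 and 3 had the lowest. In RNA from whole cultures, fewer cells of a type and less RNA per cell cannot be told apart.

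Of the 59 Rab genes 37 reached a group mean of 6 in at least 1 group, and the other 22, whose highest group means lay between 3.22 and 5.96, were counted as dim. The dim genes were Rab3a, Rab3b, Rab3c, Rab4a, Rab6b, Rab9b, Rab15, Rab17, Rab19, Rab25, Rab26, Rab27b, Rab30, Rab33a, Rab36, Rab37, Rab38, Rab39, Rab39b, Rab40b, Rab42 and Rab44. Several of them are known from neurons (Rab3a, Rab3c, Rab6b) or epithelia (Rab17, Rab25). In at least 1 comparison 23 Rab genes changed, which here means a limma adjusted p under 0.05 over all 19945 genes, and 32.4% of all genes did so. Among them were 18 of the 37 brighter and 5 of the 22 dim genes, namely Rab3a, Rab9b, Rab19, Rab38 and Rab40b. Of all genes 55.3% of the brighter and 11.1% of the dim ones changed in at least 1 comparison. Rab20 was the only member that changed in 4 comparisons.

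LPS moved the Rab genes in both directions and in about the proportion of the array as a whole. In HDAC3 -/- cells 7 of 59 changed (11.9%), 3 higher and 4 lower after LPS, where 8.87% of all genes changed, 3.69% upward and 5.18% downward. In HDAC3 +/- cells 17 of 59 changed (28.8%), 6 higher and 11 lower, where 25.1% of all genes changed, 9.59% upward and 15.5% downward. Among genes that reached a group mean of 6, the shares were 6 of 37 Rab genes (16.2%) and 17.5% of all such genes in -/- cells, and 14 of 37 (37.8%) and 42.1% in +/- cells. The median log2 difference of the 59 Rab genes was -0.06 in -/- cells and 0.11 in +/- cells, beside 0.02 and 0.08 over all genes. LPS and untreated arrays did not overlap for 22 of the 59 in -/- cells, where 28.3% of all genes did not, and for 27 of the 59 in +/- cells, where 36.7% did not. The direction of the split depended on the scaling of the arrays. Under cyclic loess 5 rose and 4 fell in -/- cells, and 10 rose and 7 fell in +/- cells. Without the 2 male arrays the counts were 8 in -/- cells and 16 in +/- cells. In -/- cells the count also dropped to 3 without untreated replicate 1, to 4 without untreated replicate 3 and to 4 without LPS replicate 2, and rose to 15 with array weights. The share of all genes moved likewise, from 8.87% to 5.73%, 6.16% and 5.93% without these arrays and to 22.2% with array weights.

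**Figure D1:**
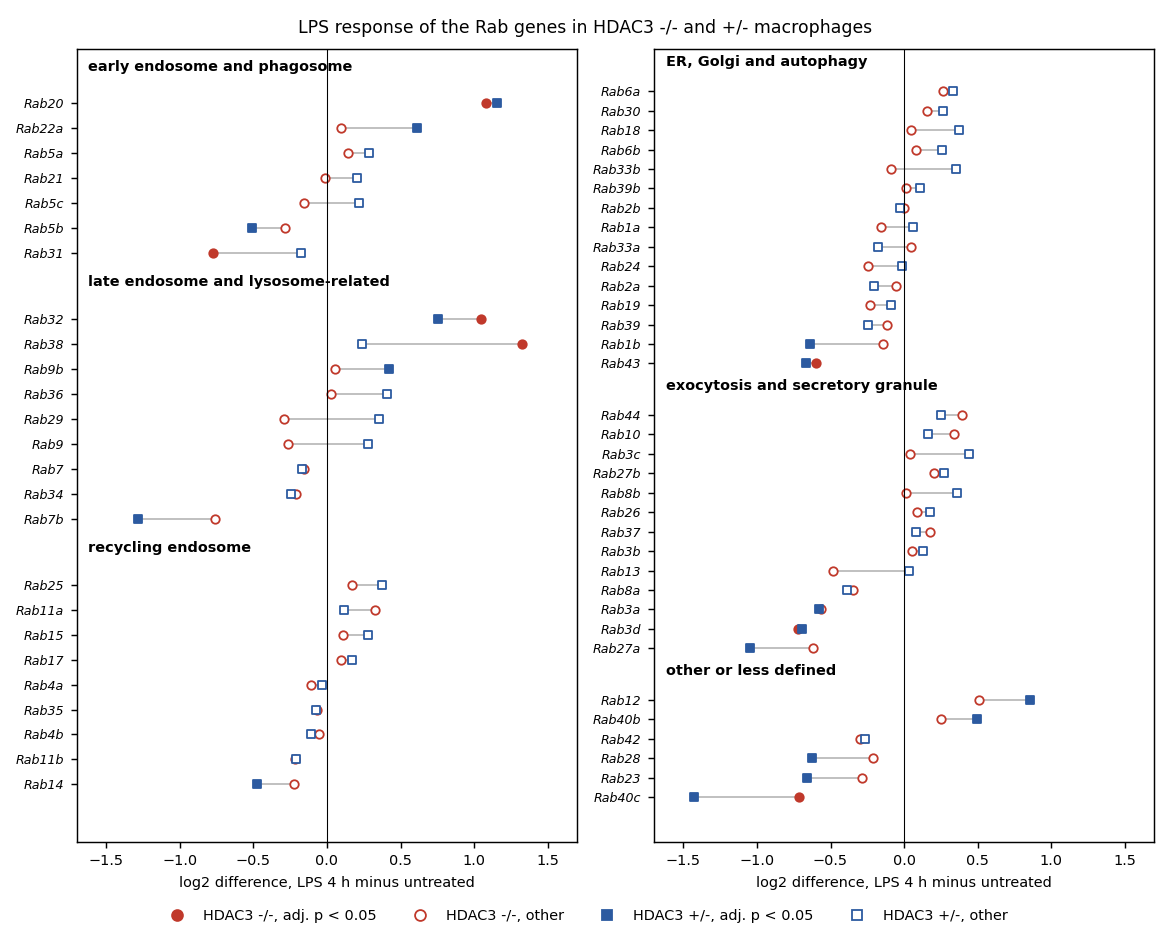
Log2 difference, LPS 4 h minus untreated, of each of the 59 Rab genes by cellular role, in HDAC3 -/- (red circles) and HDAC3 +/- cells (blue squares); filled symbols passed adjusted p < 0.05. Most genes lie within 0.5 of 0, Rab20 and Rab32 are filled on the right in both genotypes, and Rab40c, Rab3d and Rab43 are filled on the left in both.

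Most Rab genes had LPS differences of the same sign in both genotypes. The 2 LPS responses share no arrays, and over the 59 genes they had Pearson r = 0.745 and Spearman rho = 0.742, with 50 of 59 genes (84.7%) on the same side of 0. This is a description across genes of arrays normalized together, and over all genes Pearson r was 0.796. Changed in both genotypes, in the same direction, were Rab20 and Rab32, which rose, and Rab3d, Rab40c and Rab43, which fell. These 5 are 71.4% of the 7 changed genes of -/- cells and 29.4% of the 17 changed genes of +/- cells. Over all genes 74.1% had the same sign, and those changed in both in the same direction were 83.3% of the changed genes of -/- cells and 29.5% of those of +/- cells.

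Early endosomes and phagosomes are served by 7 of the members, and all 7 were among the brighter genes. Rab20, which takes part in the maturation of phagosomes, rose with LPS in both genotypes and was higher in HDAC3 -/- cells with and without LPS. Rab20 (probe set 10577025, chromosome 8) had log2 signals of 9.01, 9.25 and 9.45 in HDAC3 -/- LPS cells and 8.24, 8.08 and 8.15 in HDAC3 -/- untreated cells, against 8.58, 8.48 and 8.33 in HDAC3 +/- LPS cells and 7.53, 7.14 and 7.25 in HDAC3 +/- untreated cells. The 4 groups of arrays did not overlap, with the -/- LPS arrays highest and the +/- untreated arrays lowest. LPS raised Rab20 by 1.08 ± 0.15 (SE, adjusted p = 0.00031) in -/- cells, or 2.12-fold, and by 1.15 ± 0.15 (SE, adjusted p = 7.58e-05) in +/- cells, or 2.23-fold. The -/- minus +/- difference was 0.78 ± 0.15 (SE, adjusted p = 0.00288) after LPS and 0.85 ± 0.15 (SE, adjusted p = 0.00566) in untreated cells, or 1.71-fold and 1.8-fold. The -/- untreated arrays lay just below the +/- LPS arrays. The interaction, the LPS difference in -/- cells minus that in +/- cells, was -0.07 ± 0.21 (SE, adjusted p = 0.928) and did not pass. All 4 calls held under each of the 25 alternative settings.

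The promoters of Rab20, Rab32 and Rab12, the brighter Rab genes with the largest rises after LPS in +/- cells, are printed to show where the motif of a macrophage factor lies in each. They were also picked as members that share a motif, so its presence in each is not a result. Each runs from 250 bases before to 50 bases after the RefSeq start in GRCm38.p6, 5′ to 3′ on the strand of the gene, at chr8:11478591-11478890 on the minus strand, chr10:10558158-10558457 on the minus strand and chr17:66519621-66519920 on the minus strand. Capitals mark the core motif GAGGAAG of PU.1, a factor of macrophages and other blood cells, read on either strand (CTTCCTC on the reverse), and the E-box CACGTG.
Rab20: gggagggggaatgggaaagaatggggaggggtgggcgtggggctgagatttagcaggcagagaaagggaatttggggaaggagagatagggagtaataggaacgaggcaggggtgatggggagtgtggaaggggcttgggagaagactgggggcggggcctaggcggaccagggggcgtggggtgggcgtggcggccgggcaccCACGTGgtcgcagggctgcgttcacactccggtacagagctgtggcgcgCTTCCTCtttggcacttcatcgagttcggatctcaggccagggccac
Rab32: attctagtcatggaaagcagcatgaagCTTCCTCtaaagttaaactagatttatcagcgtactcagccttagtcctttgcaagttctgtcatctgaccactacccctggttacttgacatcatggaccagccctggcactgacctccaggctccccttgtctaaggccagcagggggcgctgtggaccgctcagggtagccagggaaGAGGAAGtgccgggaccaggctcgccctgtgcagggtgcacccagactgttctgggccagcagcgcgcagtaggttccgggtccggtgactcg
Rab12: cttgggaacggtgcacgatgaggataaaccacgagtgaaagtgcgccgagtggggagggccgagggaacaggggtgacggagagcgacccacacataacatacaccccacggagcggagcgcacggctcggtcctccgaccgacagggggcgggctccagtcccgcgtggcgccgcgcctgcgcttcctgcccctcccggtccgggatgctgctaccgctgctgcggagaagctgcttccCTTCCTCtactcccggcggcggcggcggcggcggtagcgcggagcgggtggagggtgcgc
Promoters were found for 48 of the 59 Rab genes, 60 promoters in all, and Rab7b and Rab38 were among the 11 with none in the table. The PU.1 core stood in 8 of the 60 (13.3%), those of Rab2b, Rab6a, Rab6b, Rab12, Rab20, Rab21, Rab32 and Rab33b, and in 13.6% of all 32851 promoters of that length. Of these, Rab2b, Rab6a, Rab6b, Rab21 and Rab33b changed in no comparison. Rab22a, which also rose with LPS in +/- cells, was not among the genes with the core. The E-box stood in 6 of the 60 (10.0%, and 7.15% of all promoters), those of Rab5a, Rab20, Rab21, Rab23, Rab24 and Rab27a. The NF-kB motif, GGGNNN directly followed by TTCC, stood in 6.67% of the 60 and 5.56% of all promoters, and the AP-1 motif TGANTCA in 5.0% and 7.81%. The interferon motif, GAAANN directly followed by GAAA, stood in 1.67% and 3.44%, and the antioxidant response motif TGACNNNGC in 16.7% and 12.4%. All were searched on both strands, and a match is a run of letters, not a shown binding site.

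Rab22a, of early endosomes and the recycling of cargo taken up without clathrin, rose with LPS in HDAC3 +/- cells. Signals of Rab22a (probe set 10479063, chromosome 2) were 9.16, 9.39 and 8.98 in -/- LPS cells and 9.25, 8.89 and 9.13 in -/- untreated cells, with 9.84, 9.45 and 9.75 in +/- LPS cells and 9.03, 9.32 and 8.85 in +/- untreated cells. The +/- LPS arrays lay above all 9 others, and the remaining groups overlapped. The LPS difference was 0.09 ± 0.17 (SE, adjusted p = 0.848) in -/- cells and 0.61 ± 0.17 (SE, adjusted p = 0.0158) in +/- cells. The call in +/- cells was lost without +/- LPS replicate 3 or +/- untreated replicate 3 (adjusted p = 0.0562 to 0.0735), and under omission of the male arrays (adjusted p = 0.0947). Rab31, which works between the trans-Golgi network and early endosomes, fell in HDAC3 -/- cells. Rab31 (probe set 10452485, chromosome 17) read 10.89, 10.51 and 10.56 on -/- LPS arrays and 11.42, 11.40 and 11.46 on -/- untreated arrays, and 10.33, 10.98 and 10.73 on +/- LPS arrays and 10.63, 10.78 and 11.16 on +/- untreated arrays. The -/- untreated arrays stood above all others. The LPS difference was -0.77 ± 0.18 (SE, adjusted p = 0.0156) in -/- cells, while in +/- cells it was -0.18 ± 0.18 (SE, adjusted p = 0.481). This call was lost without -/- LPS replicates 2 or 3 or -/- untreated replicates 1 or 3 (adjusted p = 0.0542 to 0.0714). Rab5b, 1 of 3 Rab5 isoforms that fuse early endosomes, fell by 0.51 ± 0.16 (SE, adjusted p = 0.0291) in +/- cells. Signals of Rab5b (probe set 10486057, chromosome 10) were 9.49, 9.45 and 9.31 in -/- LPS cells and 9.75, 9.42 and 9.93 in -/- untreated cells, with 8.86, 9.11 and 9.13 in +/- LPS cells and 9.32, 9.61 and 9.70 in +/- untreated cells. LPS and untreated arrays of Rab5b overlapped in -/- cells and did not in +/- cells. Its second probe set gave -0.43 (adjusted p = 0.117) in +/- cells. This call was lost without +/- LPS replicate 1 or +/- untreated replicates 2 or 3 (adjusted p = 0.0686 to 0.109), and under array weights, cyclic loess scaling, the mean of all probe sets and a fit of the compared arrays alone (adjusted p = 0.0537 to 0.233). Rab5a, Rab5c and Rab21 changed in no comparison, with LPS differences of -0.16 to 0.14 in -/- cells and 0.21 to 0.29 in +/- cells.

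Late endosomes and lysosome-related organelles had 9 members, and 2 of them, Rab32 and its close relative Rab38, rose with LPS in HDAC3 -/- cells. In these cells 3.69% of all genes and 7.09% of those that reached a group mean of 6 rose. Rab32 acts in melanosomes and in the macrophage defence against Salmonella. Rab32 (probe set 10367822, chromosome 10) had log2 signals of 10.37, 10.33 and 10.42 in HDAC3 -/- LPS cells and 8.97, 9.96 and 9.04 in HDAC3 -/- untreated cells, against 10.31, 9.85 and 9.92 in HDAC3 +/- LPS cells and 9.41, 8.81 and 9.61 in HDAC3 +/- untreated cells. All LPS arrays lay above all untreated arrays within each genotype, although -/- untreated replicate 2 stood far above its 2 companions. Its LPS difference was 1.05 ± 0.25 (SE, adjusted p = 0.0182) in -/- cells, or 2.07-fold, and 0.75 ± 0.25 (SE, adjusted p = 0.0436) in +/- cells, or 1.69-fold. The call in -/- cells was lost without -/- LPS replicates 1, 2 or 3 or -/- untreated replicates 1 or 3 (adjusted p = 0.053 to 0.0963). The call in +/- cells was lost without -/- LPS replicates 1, 2 or 3, +/- LPS replicates 1, 2 or 3 or +/- untreated replicates 1 or 2 (adjusted p = 0.0545 to 0.141), and under array weights, median centring, omission of the male arrays, quantile normalization and a replicate block over all groups (adjusted p = 0.0563 to 0.134). Rab38, known from melanosomes and the mouse coat colour mutant chocolate, rose with LPS in -/- cells from a dim level, and its group means stayed below 6 throughout. Rab38 (probe set 10554800, chromosome 7) read 6.08, 6.17 and 5.63 on -/- LPS arrays and 4.55, 4.45 and 4.90 on -/- untreated arrays, and 5.16, 4.78 and 4.72 on +/- LPS arrays and 4.64, 4.70 and 4.62 on +/- untreated arrays. The -/- LPS arrays lay apart from all 9 others. The LPS difference was 1.33 ± 0.17 (SE, adjusted p = 0.000244) in -/- cells, or 2.51-fold, while the difference in +/- cells was 0.24 ± 0.17 (SE, adjusted p = 0.332). After LPS the -/- minus +/- difference was 1.07 ± 0.17 (SE, adjusted p = 0.001), and both of these -/- calls held in every setting that kept dim genes. Rab38 had the highest interaction of the family, 1.09 ± 0.25 (SE, adjusted p = 0.0538), which missed the threshold. The interaction passed without -/- LPS replicate 3, -/- untreated replicate 3 or +/- LPS replicate 1 (adjusted p = 0.0296 to 0.0433), and under array weights, cyclic loess scaling and robust variance moderation (adjusted p = 0.0111 to 0.0472).

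Rab7b, which sends cargo from late endosomes to the trans-Golgi network and is known to limit TLR4 signalling in macrophages, fell with LPS in HDAC3 +/- cells. Signals of Rab7b (probe set 10349661, chromosome 1) were 8.69, 7.96 and 8.99 in -/- LPS cells and 9.65, 9.27 and 9.01 in -/- untreated cells, with 7.29, 8.16 and 7.64 in +/- LPS cells and 9.04, 8.62 and 9.29 in +/- untreated cells. The +/- LPS arrays were lower than every untreated array, and -/- LPS replicate 2 lay among them. The LPS difference was -0.76 ± 0.28 (SE, adjusted p = 0.126) in -/- cells, which did not pass, and -1.28 ± 0.28 (SE, adjusted p = 0.00429) in +/- cells, or 2.44-fold lower, a call that held in every setting. The -/- minus +/- difference after LPS was 0.85 ± 0.28 (SE, adjusted p = 0.0566). Rab29, a Rab of the trans-Golgi network that brings the kinase LRRK2 to stressed lysosomes, was lower in HDAC3 -/- cells after LPS. Rab29 (probe set 10349724, chromosome 1) had log2 signals of 7.66, 7.50 and 7.82 in HDAC3 -/- LPS cells and 8.09, 7.68 and 8.09 in HDAC3 -/- untreated cells, against 8.80, 8.75 and 8.42 in HDAC3 +/- LPS cells and 8.01, 8.47 and 8.42 in HDAC3 +/- untreated cells. All -/- LPS arrays lay below all +/- LPS arrays. The difference of -0.999 ± 0.17 (SE, adjusted p = 0.00142), or 2-fold lower in -/- cells, was the most negative of the family between genotypes and held in every setting. The LPS difference of Rab29 was -0.29 ± 0.17 (SE, adjusted p = 0.399) in -/- cells and 0.36 ± 0.17 (SE, adjusted p = 0.143) in +/- cells. Dim Rab9b, a relative of the late endosomal Rab9, rose by 0.42 ± 0.12 (SE, adjusted p = 0.0225) in +/- cells. Rab9b (probe set 10606893, chromosome X) read 4.86, 4.89 and 4.81 on -/- LPS arrays and 4.91, 4.86 and 4.62 on -/- untreated arrays, and 5.06, 5.198 and 5.03 on +/- LPS arrays and 4.75, 4.58 and 4.69 on +/- untreated arrays. Only the +/- LPS arrays stood above 5. This call was lost without +/- LPS replicate 2 or +/- untreated replicates 2 or 3 (adjusted p = 0.0512 to 0.0753), and under array weights, cyclic loess scaling, a fit of the compared arrays alone and quantile normalization (adjusted p = 0.0518 to 0.197). Rab7, the main Rab of late endosomes and lysosomes, changed in no comparison, and neither did Rab9, Rab34 or dim Rab36. Their LPS differences were -0.26 to 0.03 in -/- cells and -0.24 to 0.41 in +/- cells.

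**Figure D2:**
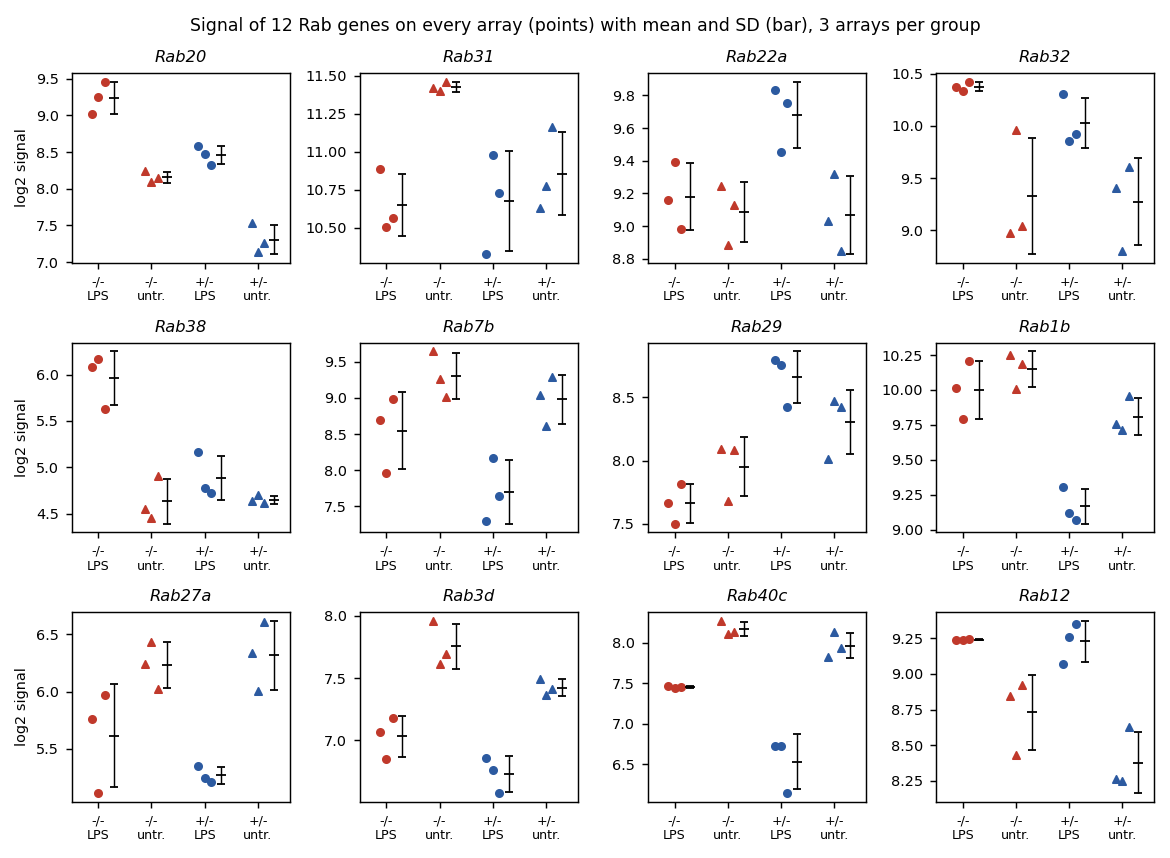
Log2 signal of 12 changed Rab genes on each of the 12 arrays (points; circles LPS, triangles untreated; red HDAC3 -/-, blue HDAC3 +/-), with the mean and SD of the 3 arrays of a group beside them; each panel has its own y axis. The 4 groups of Rab20 are apart, Rab38 stands out in -/- LPS cells, and Rab1b and Rab40c are lowest in +/- LPS cells.

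Recycling endosomes had 9 members, of which only Rab14 changed in any comparison, where 32.4% of all genes changed in at least 1. Rab14 moves cargo between the Golgi and recycling endosomes. Rab14 (probe set 10482017, chromosome 2) had log2 signals of 10.72, 10.72 and 10.85 in HDAC3 -/- LPS cells and 10.90, 10.997 and 11.06 in HDAC3 -/- untreated cells, against 10.48, 10.35 and 10.27 in HDAC3 +/- LPS cells and 10.74, 10.82 and 10.96 in HDAC3 +/- untreated cells. The +/- LPS arrays were the lowest of the 4 groups, with no overlap. Rab14 had an LPS difference of -0.22 ± 0.12 (SE, adjusted p = 0.351) in -/- cells and fell by 0.47 ± 0.12 (SE, adjusted p = 0.0107) in +/- cells. After LPS it was higher in -/- cells by 0.40 ± 0.12 (SE, adjusted p = 0.0393), or 1.32-fold. The LPS call was lost under a fit of the compared arrays alone (adjusted p = 0.0596). The genotype call was lost without -/- LPS replicates 1, 2 or 3, -/- untreated replicates 1, 2 or 3 or +/- LPS replicates 2 or 3 (adjusted p = 0.0523 to 0.151), and under cyclic loess scaling, median centring, a fit of the compared arrays alone and a replicate block over all groups (adjusted p = 0.058 to 0.124). The central recycling Rabs Rab11a, Rab11b and Rab4b and the fast recycling Rab35 were bright and changed in no comparison, and the dim Rab4a, Rab15, Rab17 and Rab25 did not either. The lowest adjusted p of these 8 was 0.0921. The second probe set of Rab11b gave a -/- minus +/- difference after LPS of -0.54 (adjusted p = 0.0842), and the first gave -0.11 (adjusted p = 0.71).

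The endoplasmic reticulum, Golgi and autophagy route had 15 members, and 4 of them changed in at least 1 comparison, where 32.4% of all genes did. Rab1a and Rab1b, close relatives that carry cargo from the endoplasmic reticulum to the Golgi, changed in opposite directions between genotypes after LPS. Rab1b (probe set 10464924, chromosome 19) read 10.01, 9.79 and 10.21 on -/- LPS arrays and 10.25, 10.00 and 10.19 on -/- untreated arrays, and 9.31, 9.12 and 9.07 on +/- LPS arrays and 9.76, 9.71 and 9.96 on +/- untreated arrays. The +/- LPS arrays were far below all others. Rab1b was higher in -/- LPS cells by 0.84 ± 0.14 (SE, adjusted p = 0.00133), or 1.78-fold. The LPS difference of Rab1b was -0.14 ± 0.14 (SE, adjusted p = 0.677) in -/- cells and -0.64 ± 0.14 (SE, adjusted p = 0.00449) in +/- cells, or 1.56-fold lower, and both Rab1b calls held in every setting. Signals of Rab1a (probe set 10374466, chromosome 11) were 11.32, 11.40 and 11.45 in -/- LPS cells and 11.57, 11.61 and 11.45 in -/- untreated cells, with 11.87, 11.71 and 11.78 in +/- LPS cells and 11.81, 11.77 and 11.61 in +/- untreated cells. Rab1a was lower in -/- LPS cells, and its LPS arrays did not overlap between genotypes. The -/- minus +/- difference of Rab1a was -0.40 ± 0.12 (SE, adjusted p = 0.0347) after LPS and -0.18 ± 0.12 (SE, adjusted p = 0.605) in untreated cells. The call after LPS was lost without -/- LPS replicates 1, 2 or 3, -/- untreated replicate 1 or +/- LPS replicates 1 or 3 (adjusted p = 0.054 to 0.122), and under omission of the male arrays, a fit of the compared arrays alone and a replicate block over all groups (adjusted p = 0.0535 to 0.0884). Whether probes of close relatives such as these bind each other's RNA was not tested.

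Rab43, a Golgi Rab known to assist cross-presentation in dendritic cells, fell with LPS in both genotypes. Rab43 (probe set 10546056, chromosome 6) had log2 signals of 6.74, 6.92 and 6.72 in HDAC3 -/- LPS cells and 7.41, 7.07 and 7.71 in HDAC3 -/- untreated cells, against 7.14, 6.73 and 6.91 in HDAC3 +/- LPS cells and 7.45, 7.82 and 7.52 in HDAC3 +/- untreated cells. LPS arrays lay below untreated arrays within each genotype, and the genotypes overlapped under both treatments. With LPS the level differed by -0.60 ± 0.17 (SE, adjusted p = 0.0455) in -/- cells and -0.67 ± 0.17 (SE, adjusted p = 0.0118) in +/- cells. The call in -/- cells was lost without -/- LPS replicates 1, 2 or 3, -/- untreated replicates 1 or 3, +/- LPS replicate 3 or +/- untreated replicates 1 or 3 (adjusted p = 0.0511 to 0.197), and under cyclic loess scaling, an intensity trend in the variances, quantile normalization, a replicate block within genotype and a replicate block over all groups (adjusted p = 0.0605 to 0.115). The call in +/- cells was lost without +/- LPS replicate 2 (adjusted p = 0.0525), and under cyclic loess scaling and quantile normalization (adjusted p = 0.114 to 0.136). Rab19, a dim Rab ascribed to the Golgi, was lower in -/- than in +/- cells after LPS, with a difference of -0.68 ± 0.16 (SE, adjusted p = 0.011), in every setting that kept dim genes. Rab19 (probe set 10537428, chromosome 6) read 5.14, 5.04 and 5.29 on -/- LPS arrays and 5.48, 5.11 and 5.58 on -/- untreated arrays, and 5.78, 6.05 and 5.68 on +/- LPS arrays and 5.72, 6.09 and 5.97 on +/- untreated arrays. The arrays did not overlap between genotypes under either treatment, and the untreated difference of -0.53 ± 0.16 (SE, adjusted p = 0.115) did not pass. The other 11 members, among them Rab2a, Rab6a and Rab18, changed in no comparison. Their LPS differences were -0.24 to 0.26 in -/- cells and -0.25 to 0.37 in +/- cells.

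Exocytosis and secretory granules had 13 members, and 4 of them changed in at least 1 comparison, where 32.4% of all genes did. In +/- cells 3 of the 13 fell with LPS, where 15.5% of all genes and 29.5% of those that reached a group mean of 6 fell. In -/- cells 1 of the 13 fell, where 5.18% and 10.4% fell. Rab3d, a Rab of secretory granules, fell in both genotypes. Rab3d (probe set 10591643, chromosome 9) had log2 signals of 7.07, 6.85 and 7.18 in HDAC3 -/- LPS cells and 7.96, 7.61 and 7.69 in HDAC3 -/- untreated cells, against 6.86, 6.76 and 6.57 in HDAC3 +/- LPS cells and 7.50, 7.36 and 7.41 in HDAC3 +/- untreated cells. The LPS arrays lay below the untreated arrays in each genotype. The response to LPS was -0.72 ± 0.14 (SE, adjusted p = 0.00454) in -/- cells, or 1.65-fold lower, and -0.69 ± 0.14 (SE, adjusted p = 0.00249) in +/- cells, or 1.61-fold lower, and both held in every setting. Rab27a, which docks granules and multivesicular bodies at the plasma membrane, fell in +/- cells. Signals of Rab27a (probe set 10587023, chromosome 9) were 5.76, 5.11 and 5.97 in -/- LPS cells and 6.24, 6.43 and 6.02 in -/- untreated cells, with 5.35, 5.25 and 5.204 in +/- LPS cells and 6.33, 6.00 and 6.61 in +/- untreated cells. Within each genotype LPS and untreated arrays did not overlap. The difference was -0.62 ± 0.21 (SE, adjusted p = 0.0948) in -/- cells and -1.05 ± 0.21 (SE, adjusted p = 0.00245) in +/- cells, or 2.07-fold lower, and the call in +/- cells held in every setting. Dim Rab3a, best known from synaptic vesicles, fell with LPS in +/- cells. Rab3a (probe set 10572485, chromosome 8) read 5.17, 4.97 and 5.14 on -/- LPS arrays and 5.64, 5.59 and 5.75 on -/- untreated arrays, and 4.31, 5.00 and 4.99 on +/- LPS arrays and 5.35, 5.41 and 5.28 on +/- untreated arrays. All untreated arrays were above all LPS arrays. Its LPS difference was -0.57 ± 0.17 (SE, adjusted p = 0.0544) in -/- cells and -0.58 ± 0.17 (SE, adjusted p = 0.0225) in +/- cells. The call in +/- cells was lost without +/- LPS replicate 1 or +/- untreated replicates 1 or 2 (adjusted p = 0.0543 to 0.056), and under omission of the male arrays and a fit of the compared arrays alone (adjusted p = 0.0803 to 0.105).

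Rab10, which inserts the glucose transporter GLUT4 into the plasma membrane and carries TLR4 to the macrophage surface, was higher in HDAC3 -/- cells after LPS. Rab10 (probe set 10399214, chromosome 12) had log2 signals of 10.84, 10.88 and 10.89 in HDAC3 -/- LPS cells and 10.73, 10.20 and 10.67 in HDAC3 -/- untreated cells, against 10.43, 10.39 and 10.17 in HDAC3 +/- LPS cells and 10.12, 10.37 and 10.02 in HDAC3 +/- untreated cells. The -/- LPS arrays stood above all 9 others. The -/- minus +/- difference was 0.54 ± 0.16 (SE, adjusted p = 0.0314) after LPS, or 1.45-fold, and 0.36 ± 0.16 (SE, adjusted p = 0.332) in untreated cells. The call after LPS was lost without -/- LPS replicates 1, 2 or 3 or +/- LPS replicates 2 or 3 (adjusted p = 0.0535 to 0.129), and under cyclic loess scaling (adjusted p = 0.102). The LPS difference of Rab10 was 0.34 ± 0.16 (SE, adjusted p = 0.247) in -/- cells and 0.16 ± 0.16 (SE, adjusted p = 0.46) in +/- cells. Rab8a, Rab8b and Rab13, its relatives in the same branch of the family, changed in no comparison, and neither did the dim Rab3b, Rab3c, Rab26, Rab27b, Rab37 and Rab44. The LPS differences of these 9 were -0.48 to 0.39 in -/- cells and -0.39 to 0.44 in +/- cells.

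The last 6 members have other or less defined roles, and 5 of them changed with LPS in +/- cells, where 25.1% of all genes and 42.1% of those that reached 6 changed. Rab40c, which carries a SOCS box and serves a cullin ubiquitin ligase, gave the largest fall of the family. Rab40c (probe set 10449152, chromosome 17) had log2 signals of 7.47, 7.44 and 7.45 in HDAC3 -/- LPS cells and 8.27, 8.11 and 8.13 in HDAC3 -/- untreated cells, against 6.72, 6.73 and 6.15 in HDAC3 +/- LPS cells and 7.83, 8.13 and 7.94 in HDAC3 +/- untreated cells. The untreated groups overlapped, the -/- LPS arrays lay below them, and the +/- LPS arrays lay lowest. Rab40c fell with LPS by 0.72 ± 0.16 (SE, adjusted p = 0.0108) in -/- cells, or 1.64-fold, and by 1.43 ± 0.16 (SE, adjusted p = 2.20e-05) in +/- cells, or 2.69-fold. After LPS it was higher in -/- cells by 0.92 ± 0.16 (SE, adjusted p = 0.00146), or 1.89-fold, while the interaction of 0.72 ± 0.22 (SE, adjusted p = 0.176) did not pass. The LPS call in -/- cells was lost without -/- untreated replicate 1 (adjusted p = 0.0556). Rab40b, its dim relative with the same SOCS box, moved the other way and rose by 0.49 ± 0.15 (SE, adjusted p = 0.0307) in +/- cells. Rab40b (probe set 10394109, chromosome 11) read 5.61, 5.61 and 5.50 on -/- LPS arrays and 5.29, 5.31 and 5.36 on -/- untreated arrays, and 5.49, 6.10 and 5.51 on +/- LPS arrays and 5.15, 5.27 and 5.19 on +/- untreated arrays. The LPS arrays lay above the untreated arrays in each genotype, with +/- LPS replicate 2 highest. The Rab40b call was lost without +/- LPS replicate 2 or +/- untreated replicates 1 or 3 (adjusted p = 0.0779 to 0.113), and under a fit of the compared arrays alone (adjusted p = 0.109).

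Rab12, which steers the transferrin receptor from recycling endosomes to lysosomes, rose with LPS in +/- cells. Signals of Rab12 (probe set 10452556, chromosome 17) were 9.24, 9.24 and 9.24 in -/- LPS cells and 8.84, 8.43 and 8.92 in -/- untreated cells, with 9.07, 9.26 and 9.35 in +/- LPS cells and 8.26, 8.25 and 8.63 in +/- untreated cells. LPS arrays lay above untreated arrays in both genotypes, and after LPS the genotypes overlapped. The LPS difference was 0.51 ± 0.16 (SE, adjusted p = 0.0618) in -/- cells and 0.85 ± 0.16 (SE, adjusted p = 0.00128) in +/- cells, or 1.8-fold, and the call in +/- cells held in every setting. Rab28, known from the cilia of photoreceptors, fell with LPS in +/- cells and was higher in -/- cells after LPS. Rab28 (probe set 10529741, chromosome 5) had log2 signals of 7.16, 6.78 and 7.202 in HDAC3 -/- LPS cells and 7.42, 7.13 and 7.23 in HDAC3 -/- untreated cells, against 6.63, 6.26 and 6.61 in HDAC3 +/- LPS cells and 7.18, 7.15 and 7.05 in HDAC3 +/- untreated cells. The +/- LPS arrays were lowest, with no overlap. The LPS difference was -0.21 ± 0.15 (SE, adjusted p = 0.518) in -/- cells and -0.63 ± 0.15 (SE, adjusted p = 0.00807) in +/- cells, and the -/- minus +/- difference after LPS was 0.55 ± 0.15 (SE, adjusted p = 0.0264). The LPS call was lost under cyclic loess scaling and quantile normalization (adjusted p = 0.0655 to 0.0913). The genotype call was lost without -/- LPS replicates 1 or 3 or +/- LPS replicate 2 (adjusted p = 0.0983 to 0.122), and under cyclic loess scaling, a fit of the compared arrays alone and quantile normalization (adjusted p = 0.0627 to 0.0987). Rab23, a known negative regulator of hedgehog signalling, fell in +/- cells by 0.66 ± 0.20 (SE, adjusted p = 0.0276). Rab23 (probe set 10345230, chromosome 1) read 6.20, 5.82 and 6.32 on -/- LPS arrays and 6.35, 6.57 and 6.28 on -/- untreated arrays, and 6.10, 5.94 and 5.31 on +/- LPS arrays and 6.65, 6.37 and 6.30 on +/- untreated arrays. LPS and untreated arrays overlapped in -/- cells and did not in +/- cells. This call was lost without +/- LPS replicate 3 or +/- untreated replicate 1 (adjusted p = 0.101 to 0.124), and under cyclic loess scaling, a fit of the compared arrays alone and quantile normalization (adjusted p = 0.0644 to 0.104). Dim Rab42 changed in no comparison.

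More Rab genes differed between genotypes after LPS than in untreated cells. After LPS 10 of 59 differed between HDAC3 -/- and +/- cells (16.9%), 7 higher and 3 lower in -/- cells, where 15.7% of all genes differed, 9.69% higher and 5.99% lower. In untreated cells 1 of 59 differed (1.69%), Rab20, where 2.66% of all genes did and 1.22% were higher in -/- cells. Higher after LPS were Rab38, Rab40c, Rab1b, Rab20, Rab28, Rab10 and Rab14, and lower were Rab29, Rab19 and Rab1a. Among genes that reached a group mean of 6 the shares after LPS were 8 of 37 Rab genes (21.6%) and 28.4% of all such genes. The median -/- minus +/- difference of the 59 was 0.01 after LPS and 0.11 untreated, beside -0.04 and 0.01 over all genes. The arrays of the genotypes did not overlap for 25 of 59 after LPS and 14 of 59 untreated, where 31.8% and 18% of all genes did not. Rab40c, Rab1b, Rab28 and Rab14 were also the 4 genes that both fell with LPS in +/- cells and were higher in -/- LPS cells. Both comparisons use the same +/- LPS arrays, so these calls are not independent.

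The split after LPS was 4 higher and 5 lower under cyclic loess, 6 and 5 under median centring and 6 and 4 under quantile normalization. Without the 2 male arrays the counts were 9 after LPS and 1 untreated. The count after LPS was 6 without -/- LPS replicate 1 and likewise 6 without -/- LPS replicate 3, and 16 with array weights, which also made 2 genes differ in untreated cells. The shares of all genes were 10.1% and 8.45% without these arrays, and 22.3% after LPS and 5.95% untreated with array weights. The differences after LPS and untreated share no arrays, and over the 59 genes they had Pearson r = 0.578 and Spearman rho = 0.529, with 40 of 59 on the same side of 0. Over all genes Pearson r was 0.612, and the arrays were normalized together.

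**Figure D3:**
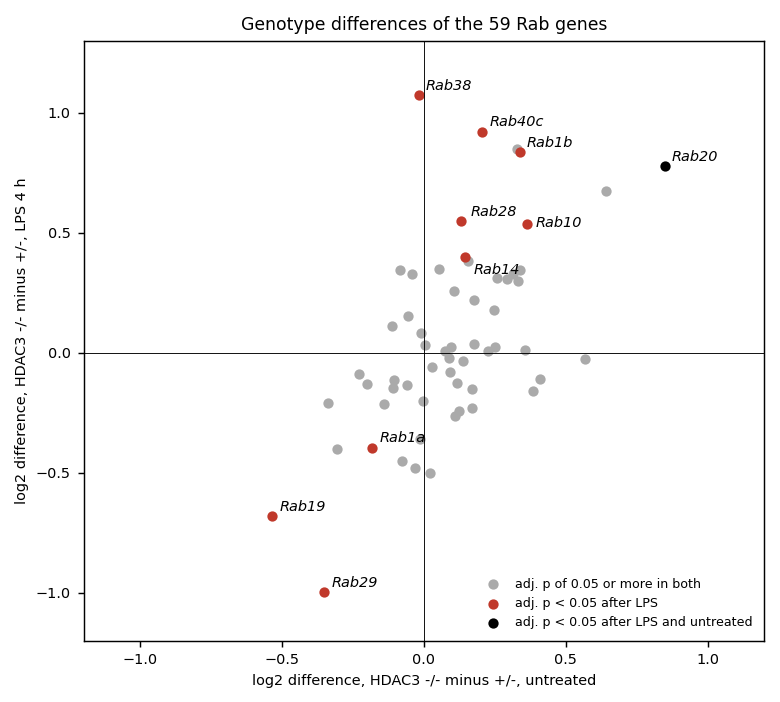
Log2 difference, HDAC3 -/- minus +/-, of the 59 Rab genes in untreated cells (x axis) and after LPS 4 h (y axis), with 3 arrays per group. The 10 named genes passed adjusted p < 0.05 after LPS, and of these only Rab20 (black) did so in untreated cells too.

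No Rab gene passed the test of the interaction, which asks whether the LPS response differs between genotypes and which 1.08% of all genes passed. Without the 2 male arrays 0 passed too. At an unadjusted p under 0.05 limma gave 6 Rab genes. The share of all genes at that looser threshold was not counted, so the 6 cannot be set against the 1.08%. Responses were higher in -/- cells for Rab38 (1.09), Rab40c (0.72) and Rab1b (0.50). Responses were lower in -/- cells for Rab29 (-0.65), Rab31 (-0.59) and Rab22a (-0.52). Their adjusted p values lay between 0.0538 and 0.42. A Rab gene that changed in one genotype and not in the other is therefore not shown to respond differently between them.

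Most of the genes that switch Rab proteins on and off that changed with LPS were lower after it, as were most changed genes of the whole array, except that under cyclic loess 52.6% of all changed genes rose in -/- cells. Of all genes that reached a group mean of 6, 7.09% rose and 10.4% fell in -/- cells, and 12.6% rose and 29.5% fell in +/- cells. The lists that follow hold both brighter and dim genes, and that level was reached by 27 of 33 GAPs, 28 of 33 GEFs, 8 of 9 prenylation and GDI genes and 37 of 49 effectors. GAPs, most of them of the TBC1D family, changed in 11 of 33 in HDAC3 -/- cells, all lower after LPS, and in 19 of 33 in +/- cells, 2 higher and 17 lower. Their median log2 difference was -0.34 in -/- cells and -0.46 in +/- cells, where the 9613 genes that reached a group mean of 6 had medians of -0.09 and -0.24. The largest falls were those of Tbc1d4 (AS160, a GAP for Rab10), at -1.41 ± 0.24 (SE, adjusted p = 0.00188) in -/- cells and -2.13 ± 0.24 (SE, adjusted p = 2.45e-05) in +/- cells. Tbc1d14, an autophagy regulator, differed by -1.14 and -1.43, Tbc1d8 by -1.08 and -1.84 and Tbc1d2b by -0.60 and -1.60 in -/- and +/- cells, and all of them passed. GEFs changed in 10 of 33 in -/- cells, 2 higher and 8 lower, and in 15 of 33 in +/- cells, 4 higher and 11 lower. Rab3il1, a GEF for Rab8, moved most of all. Signals of Rab3il1 were 7.02, 6.25 and 7.08 in -/- LPS cells and 9.69, 9.77 and 9.70 in -/- untreated cells, with 6.25, 6.62 and 6.61 in +/- LPS cells and 9.66, 9.47 and 10.01 in +/- untreated cells. It fell by 2.94 ± 0.21 (SE, adjusted p = 9.96e-07) in -/- cells and by 3.22 ± 0.21 (SE, adjusted p = 2.16e-07) in +/- cells, with no overlap of LPS and untreated arrays. Madd, a GEF for Rab3 and Rab27, differed by -1.30 in -/- and -1.71 in +/- cells, and Dennd4c, a GEF for Rab10, by -1.10 and -1.78, and Dennd2c by -1.35 and -1.97, and all of them passed. The GAPs and GEFs that changed were also mostly lower under each of the 3 other scalings. Under cyclic loess they were 0 higher and 8 lower for the GAPs and 3 higher and 6 lower for the GEFs in -/- cells, and 4 higher and 14 lower and 4 higher and 8 lower in +/- cells. Rabgef1 (Rabex-5), a GEF for Rab5, rose by 0.83 in -/- and 0.97 in +/- cells.

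The list of prenylation and GDI genes changed in 0 of 9 in -/- cells and in 6 of 9 in +/- cells. All 6 were lower after LPS (Chml, Rabggta, Rabggtb, Rabif, Fnta and Gdi2). Of these, Fnta is a subunit of farnesyl transferase and Rabif a Rab chaperone. Neither is a gene of Rab geranylgeranyl transferase or of GDI. Differences in +/- cells lay between -0.69 and -0.16 over all 9 listed genes. Under quantile normalization 3 of the 9 and under cyclic loess 2 were lower in +/- cells. The call of Rabggta (adjusted p = 0.0492) was lost without -/- LPS replicate 1, -/- untreated replicates 1, 2 or 3, +/- LPS replicates 1, 2 or 3 or +/- untreated replicates 2 or 3, and under a replicate block over all groups, a fit of the compared arrays alone, quantile normalization, cyclic loess scaling, an intensity trend in the variances, array weights, a test of all probe sets and omission of the male arrays (adjusted p up to 0.262). None passed the interaction test, and 2 of the 9, Rabif and Fnta, were higher in -/- than in +/- cells after LPS (adjusted p = 0.0228 and 0.0274), where cyclic loess left 0. The Rabif call was lost without -/- LPS replicates 1 or 3 or +/- LPS replicate 3, and under cyclic loess scaling (adjusted p up to 0.115). The Fnta call was lost without -/- LPS replicate 3 or +/- LPS replicates 2 or 3, and under a fit of the compared arrays alone, quantile normalization and cyclic loess scaling (adjusted p up to 0.138). Effectors changed in 13 of 49 in -/- cells, 2 higher and 11 lower, and in 25 of 49 in +/- cells, 5 higher and 20 lower, and under cyclic loess 2 higher and 9 lower and 6 higher and 15 lower. Rab11fip1, an effector of Rab11, rose by 2.53 ± 0.27 (SE, adjusted p = 4.28e-05) in -/- cells and 2.56 ± 0.27 (SE, adjusted p = 1.53e-05) in +/- cells. Rab11fip1 read 8.63, 9.45 and 8.11 on -/- LPS arrays and 6.47, 6.03 and 6.10 on -/- untreated arrays, and 8.89, 8.44 and 9.14 on +/- LPS arrays and 6.24, 6.29 and 6.24 on +/- untreated arrays. LPS and untreated arrays were apart by more than 1.5 units. Lower were Mical1, an actin oxidase bound by Rab8 and Rab10, at -1.51 in -/- and -1.36 in +/- cells, and Plekhm1, a lysosomal effector of Rab7, at -1.13 and -1.86 in the same order, and both passed in each genotype. The listed subunits of the HOPS tether, an effector of Rab7, were set side by side after their values were seen. In -/- cells 3 of the 6 fell, Vps11 with a difference of -0.83, Vps39 at -0.67 and Vps16 at -0.61, and Vps18 had -0.33 ± 0.15 (SE, adjusted p = 0.246). All 6 fell with LPS in +/- cells, Vps18 by 1.19 ± 0.15 (SE, adjusted p = 8.70e-05), Vps39 by 0.96 and Vps11 by 0.80. Vps16 fell by 0.63, Vps33a by 0.61 and Vps41 by 0.57. Of all genes that reached a group mean of 6, 10.4% fell in -/- cells and 29.5% in +/- cells. A joint change of the complex was not tested. Vps18 alone of the 6 differed between genotypes after LPS, with a -/- minus +/- difference of 0.79 ± 0.15 (SE, adjusted p = 0.00354), and its interaction was 0.85 ± 0.22 (SE, adjusted p = 0.0873).

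**Figure D4:**
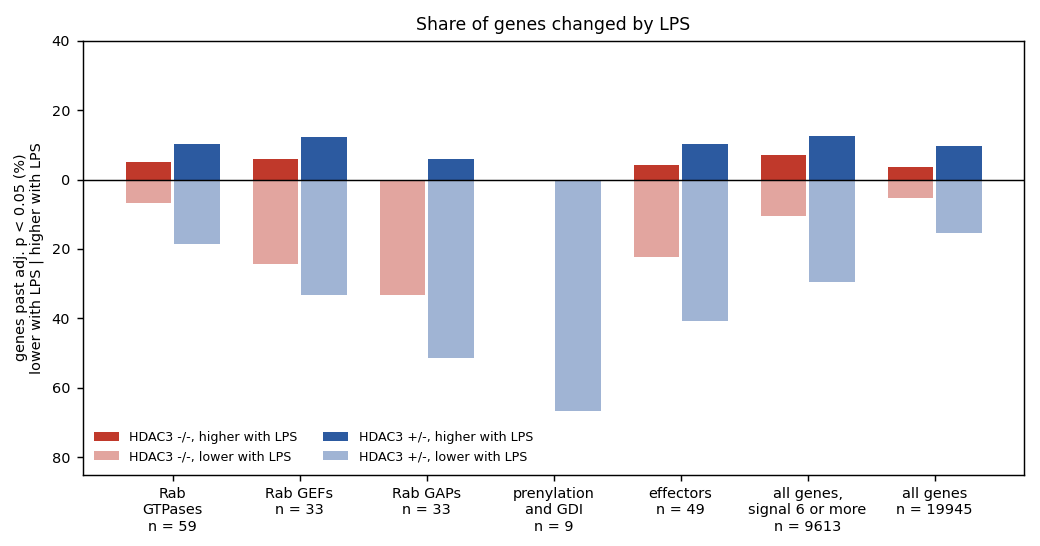
Share of genes (%) that changed with LPS at adjusted p < 0.05, higher (upward bars) and lower (downward, paler bars), in HDAC3 -/- (red) and HDAC3 +/- cells (blue), for the 59 Rab genes, the lists of their regulators and effectors, and all genes. For the Rab genes the bars reach about as far as for all genes, and those of the GAPs point mainly downward.

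Between genotypes the regulators, like the genes of the whole array, differed mostly after LPS. GAPs differed in 8 of 33 after LPS, 6 higher and 2 lower in HDAC3 -/- cells, GEFs in 7 of 33, 2 higher and 5 lower, and effectors in 7 of 49, 5 higher and 2 lower. These are 24.2%, 21.2% and 14.3%, where 15.7% of all genes and 28.4% of those that reached 6 differed, in this brighter set 18.5% higher and 9.94% lower. Under cyclic loess the GAPs were 3 higher and 4 lower, the GEFs 1 higher and 7 lower and the effectors 3 higher and 2 lower. The largest differences after LPS were those of Rin2, a GEF for Rab5, at -2.20 ± 0.24 (SE, adjusted p = 3.97e-05), Dennd6b at -1.64 ± 0.14 (SE, adjusted p = 5.12e-06) and Dennd1b at -1.49, all lower in -/- cells. Of the genes listed as GAPs, Tbc1d2b at 1.13 and Tbc1d24 at 1.11 were higher and Tbc1d1 at -1.14 was lower. Whether each listed gene has GAP activity was not tested. In untreated cells only Tbc1d8, at -0.92 ± 0.22 (SE, adjusted p = 0.0426), and the Rab8 and Rab13 effector Micall2, at 0.88 ± 0.15 (SE, adjusted p = 0.00615), differed among the 124 regulators and effectors. Of all genes 2.66% differed in untreated cells, and of those that reached a group mean of 6, 5.1% did. The Tbc1d8 call was lost without -/- LPS replicates 1 or 3, -/- untreated replicates 1, 2 or 3, +/- LPS replicates 2 or 3 or +/- untreated replicates 1 or 3, and under a fit of the compared arrays alone, median centring and omission of the male arrays (adjusted p up to 0.153). Rin2, Dennd6b and Tbc1d24 were also the only 3 to pass the interaction test, which 1.08% of all genes and 2.12% of those that reached 6 passed.

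The Ras and Arf families of small GTPases, given for scale, changed with LPS in 3 of 26 Ras and 2 of 17 Arf genes in HDAC3 -/- cells, and in 8 of 26 and 5 of 17 in +/- cells. After LPS 4 of 26 Ras and 2 of 17 Arf genes differed between genotypes. No difference between families was tested.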

How the data were processed

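RNA of the cells was hybridised to 12 single-colour Affymetrix whole-transcript arrays, and the labels do not say whether each had its own culture. Each deposited value is a log2 signal of a probe set, and the authors obtained it with RMA (affy), per the submitters' processing notes. Not given in the sources used here are versions, chip description and genome build. The 28193 probe sets were named from the platform's annotation. Of these 21648 had 1 symbol, 1313 several and 5232 none, and the last 2 kinds were left out. The brightest probe set of each symbol gave 19945 genes.

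Group means of all 12 arrays were fitted with limma 3.58.1 (R 4.3.3), and p-values were adjusted by Benjamini-Hochberg over all genes in each of 5 contrasts. The code was tested on simulated data, in which 200 genes were changed. Tables and figures used Python 3.11.15, pandas 2.3.3, numpy 2.4.6 and matplotlib 3.10.9. Fold changes are powers of 2 of the log2 differences, and SE is limma's. Members, roles and regulator lists were chosen with earlier results of these data known. Members past the threshold are named with every array, regulators by up to 4 of the largest changes, a few beyond them after their values were seen, and other GTPase families by counts. Promoters came from RefSeq (GRCm38.p6). No protein sequence was used. Alternatives were 2 replicate blocks, the compared arrays alone, 3 scalings, 3 variance or weight settings, the filter on dim genes, 2 probe set rules, and each array left out. Leaving out the 2 male arrays was added after seeing the data.

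Deviations from the group means correlated at 0.0898, 0.195 and -0.122 between same-numbered HDAC3 -/- arrays, and at 0.243, 0.327 and 0.223 between +/- arrays. Between LPS and untreated arrays of different numbers they correlated at -0.3235 to 0.290 in -/- cells and -0.3045 to 0.107 in +/- cells. Across genotypes arrays of different numbers reached 0.514. Sex ties replicate 1 of both +/- groups, and whether the other numbers mark pairs was not settled. Array number and signal limit the precision.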

Additional observations from a re-analysis of the deposited data

Results flagged for a closer look

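Of the Rab genes and their listed regulators, 3 regulators passed the test of a different LPS response between genotypes, and none of them is a Rab gene. The 3 stand among 124 regulators and effectors. Of all genes 1.08% passed the same test, and of those that reached a group mean of 6, 2.12% did. A difference between regulators and Rab genes was not tested. Rin2, a GEF for Rab5, had an interaction of -2.77 ± 0.34 (SE, adjusted p = 0.00119). Rin2 had log2 signals of 8.60, 7.42 and 8.35 in HDAC3 -/- LPS cells and 8.76, 8.90 and 8.49 in HDAC3 -/- untreated cells, against 10.17, 10.30 and 10.50 in HDAC3 +/- LPS cells and 8.11, 8.20 and 8.15 in HDAC3 +/- untreated cells. LPS moved it by -0.59 ± 0.24 (SE, adjusted p = 0.166) in -/- cells and 2.17 ± 0.24 (SE, adjusted p = 2.11e-05) in +/- cells. Dennd6b, of the DENN domain GEFs, had an interaction of -1.79 ± 0.20 (SE, adjusted p = 0.000596). Signals of Dennd6b were 6.30, 6.13 and 6.05 in -/- LPS cells and 5.85, 5.77 and 5.67 in -/- untreated cells, with 7.64, 7.78 and 7.98 in +/- LPS cells and 5.80, 5.60 and 5.42 in +/- untreated cells. Its LPS difference was 0.40 ± 0.14 (SE, adjusted p = 0.107) in -/- cells and 2.19 ± 0.14 (SE, adjusted p = 1.84e-07) in +/- cells. Tbc1d24, of the TBC domain family, had an interaction of 1.23 ± 0.23 (SE, adjusted p = 0.0201). Tbc1d24 read 6.96, 6.93 and 6.81 on -/- LPS arrays and 7.65, 7.62 and 7.83 on -/- untreated arrays, and 6.17, 5.61 and 5.58 on +/- LPS arrays and 7.67, 7.99 and 7.80 on +/- untreated arrays. It fell in both genotypes, by 0.80 ± 0.16 (SE, adjusted p = 0.00617) in -/- cells and by 2.03 ± 0.16 (SE, adjusted p = 1.17e-06) in +/- cells. Its interaction call was lost without -/- LPS replicate 1, -/- untreated replicate 1 or +/- LPS replicate 3, and under quantile normalization (adjusted p up to 0.0665).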

How the results depend on the processing

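Results were recomputed under 25 alternatives, 12 of which left out an array. Of 35 calls of Rab genes 14 held in all 25, and 3 more, of dim Rab38 and Rab19, held in the 24 that kept dim genes, and none of the named members' results reversed. The count of changed Rab genes was 11 instead of 17 for LPS in HDAC3 +/- cells when only the compared arrays were fitted, with 18.1% of all genes instead of 25.1%, and the cause was not tested. With array weights, which ranged from 0.518 to 3.38, the counts were 15 instead of 7 for LPS in -/- cells, 16 instead of 10 for the genotypes after LPS and 2 instead of 1 untreated, with 22.2%, 22.3% and 5.95% of all genes instead of 8.87%, 15.7% and 2.66%, and the cause was not tested. The interaction gained 1 gene, Rab38, under cyclic loess, robust moderation and array weights. With each array left out, counts ranged from 3 to 8 for LPS in -/- cells, 13 to 17 for LPS in +/- cells, 6 to 13 for the genotypes after LPS, 1 to 1 untreated and 0 to 1 for the interaction. The replicate block within genotype gave 8 for LPS in -/- cells, 17 in +/- cells, with the same 17 genes, 10 and 1 for the genotypes and 0 for the interaction. The block over all 4 groups gave 6, 16, 8, 1 and 0 in the same order. The interaction could not be fitted on compared arrays alone, since it uses all 12. The share of all changed genes that rose with LPS was 52.6% under cyclic loess and 41.6% as deposited in -/- cells, and 48.4% and 38.3% in +/- cells. Of all genes that differed after LPS, 46.6% were higher in -/- cells under cyclic loess and 61.8% as deposited. The 22 dim genes had highest group means of 3.22 to 5.96, beside medians over all probe sets of 5.19 to 5.37 per array. Differences between low signals can be understated.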
